A study of Mus musculus with 2 samples.

Results

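The genes described here encode cytokines by which dendritic cells steer T cell responses: the IL-12 family subunits Il12a, Il12b, Il23a, Il27 and Ebi3, the cytokines Il6 and Il10, and the transforming growth factors Tgfb1, Tgfb2 and Tgfb3. They were taken by name, as the probe sets whose annotation holds a single symbol among these 10. All 10 were found among 21922 genes, each with 1 probe set on the array, annotated to a RefSeq transcript and not marked as cross-hybridising, so that choosing the brightest probe set of a gene changed nothing for them. The values came from 2 arrays of unstimulated dendritic cells grown from bone marrow, 1 of CBA/J cells and 1 of C57BL/6 cells. Both cultures were of normal mice, received GM-CSF from the supernatant of a transfected hybridoma, were harvested on day 7, plated for 4 h and combined over replicate wells, with no treatment in either. The number of mice, their age and their sex are not given in the sources used here.

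Several of these genes work in pairs. The p40 chain encoded by Il12b joins the p35 chain of Il12a to make IL-12, which favours interferon-gamma-producing Th1 cells, and joins the p19 chain of Il23a to make IL-23, which sustains Th17 cells. The p28 chain of Il27 joins Ebi3 to make IL-27, and Ebi3 is also known to pair with the p35 chain in IL-35. IL-6 and TGF-beta together start Th17 differentiation, TGF-beta without IL-6 favours regulatory T cells, and IL-10 restrains antigen-presenting cells. In resting dendritic cells most of these genes are known to be silent until a microbial signal switches them on, whereas Tgfb1 is expressed widely and its protein is kept latent after secretion.

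With 1 array per strain there is no replicate error, so differences are given without a test. Values are log2 signal, and differences are CBA/J minus C57BL/6. Effects of strain, culture, animal and array cannot be told apart. Signals of different probe sets are not comparable as levels, so each signal was set against the negative control probe sets of its own array, 5222 in all, whose median was 5.49 for CBA/J and 5.27 for C57BL/6. A signal between the 25th and 75th percentiles of these controls (4.24 to 6.57 for CBA/J and 4.09 to 6.37 for C57BL/6) is called near their median. A gene reached the level rule when its signal on either array was at or above the median of all genes there. That median was 6.16 for CBA/J and 6.21 for C57BL/6, and 11448 of 21922 genes reached the rule. Of the genes at the level rule, 2.14% differed by at least 2-fold, as did 5.47% of the negative controls that reached the same level. The dendritic cell markers Itgax (10.50 and 10.63) and Cd74 (12.02 and 12.33) were bright in CBA/J and C57BL/6, and of the 11 dendritic cell markers Flt3 was the one under the level rule on both arrays.

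The stretches of 250 bases before the annotated transcript starts of 4 of the genes are shown, since Il6 and Il12b lay near the negative controls on both arrays and Tgfb1 and Ebi3 lay well above their median. They are from RefSeq (GRCm38.p6), in which 6 of the 10 genes matched a promoter entry, and are written 5′ to 3′ on the strand of the gene, with matches to 4 motifs in capitals.
Il6, plus strand, chr5:30012864-30013113: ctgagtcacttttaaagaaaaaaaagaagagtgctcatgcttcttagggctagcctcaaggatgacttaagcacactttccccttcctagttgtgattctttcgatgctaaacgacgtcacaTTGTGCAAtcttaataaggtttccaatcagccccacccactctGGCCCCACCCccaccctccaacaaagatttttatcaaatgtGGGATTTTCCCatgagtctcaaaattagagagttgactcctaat
Il12b, plus strand, chr11:44399813-44400062: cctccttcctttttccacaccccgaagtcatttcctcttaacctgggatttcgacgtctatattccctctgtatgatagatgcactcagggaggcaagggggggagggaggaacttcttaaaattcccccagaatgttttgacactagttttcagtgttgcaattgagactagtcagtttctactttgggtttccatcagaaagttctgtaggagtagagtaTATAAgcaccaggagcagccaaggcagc
Ebi3, plus strand, chr17:55952373-55952622: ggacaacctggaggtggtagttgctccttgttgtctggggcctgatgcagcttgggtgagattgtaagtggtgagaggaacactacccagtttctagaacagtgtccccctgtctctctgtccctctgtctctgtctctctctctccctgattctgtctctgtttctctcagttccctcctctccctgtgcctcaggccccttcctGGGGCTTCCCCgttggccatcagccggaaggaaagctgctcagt
Tgfb1, plus strand, chr7:25686752-25687001: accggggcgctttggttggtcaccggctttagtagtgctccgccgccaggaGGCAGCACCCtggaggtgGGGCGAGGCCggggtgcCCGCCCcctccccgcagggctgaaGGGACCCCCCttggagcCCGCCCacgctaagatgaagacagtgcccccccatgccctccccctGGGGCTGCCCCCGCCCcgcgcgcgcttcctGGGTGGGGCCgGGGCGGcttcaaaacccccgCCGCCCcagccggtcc

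The motifs were searched on both strands as GGG and CC with any 5 bases between them for NF-kB, the factor that mediates most Toll-like receptor responses, TTNNGCAA for C/EBP, TATAA for a TATA box and GGGCGG for a GC box. Among all 32851 windows of the same length, 45.8% held the NF-kB letters, 9.56% the C/EBP letters, 22.8% the TATA letters and 32.7% the GC box letters. The Il6 window had 42.8% G+C, a C/EBP match from base -128 to -121 and NF-kB matches from -85 to -76 on the minus strand and from -44 to -34 over both strands. The Il12b window had 46.0% G+C and a TATA match from -28 to -24. The letters searched for NF-kB and C/EBP were not in it, and sites that depart from those letters were not searched for. The Ebi3 window had 56.0% G+C and a stretch from -44 to -34 that matched the NF-kB letters on both strands. The Tgfb1 window had 75.2% G+C, 21 CpG dinucleotides and 5 GC box matches, against medians of 52.4% G+C and 6 CpG over all windows. It also held 10 NF-kB matches, with strands and overlapping positions counted separately, and 3 of the 10 overlapped a GC box. These matches fell in stretches from -199 to -190, -181 to -172, -140 to -131, -77 to -66 and -47 to -38. Counted the same way, the Il6 window held 3 NF-kB matches and the Ebi3 window 4. Il12a had 2 annotated starts, with 50.8% and 58.4% G+C, and only the second window held matches. Tgfb2, at 53.6% G+C, had an NF-kB match from -156 to -147 on the minus strand and a TATA match from -31 to -27.

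**Figure D1:**
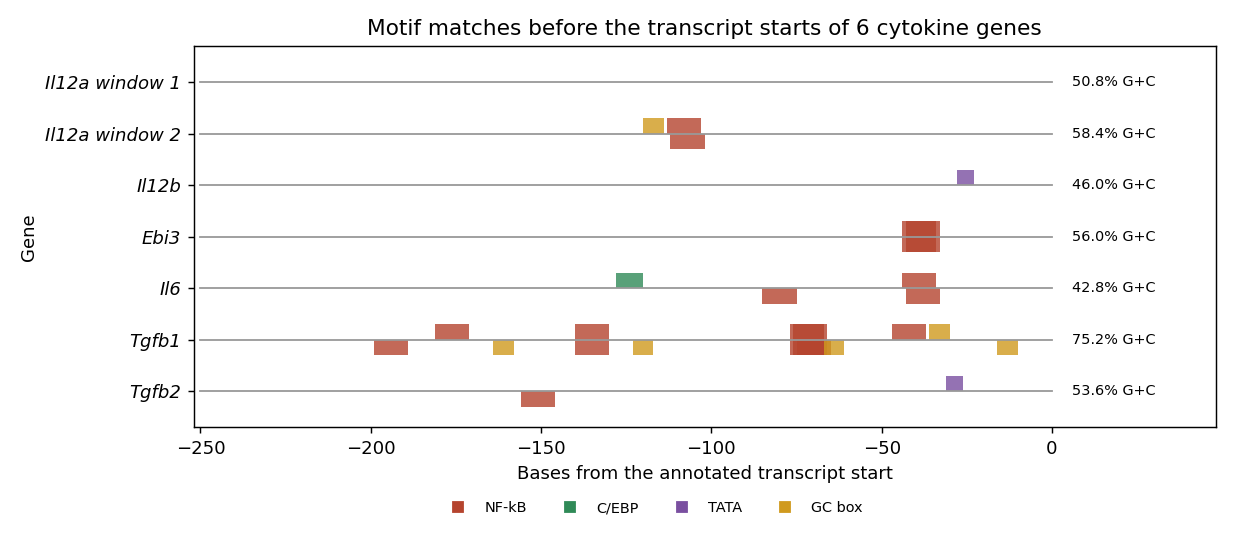
Motif matches in the 250 bases before the annotated transcript starts of 6 of the cytokine genes, by distance from the start in bases. Boxes above each line are matches on the gene's own strand and boxes below it are on the other strand, darker where matches overlap. The Tgfb1 window holds 5 GC box matches, and Il12b and Tgfb2 have a TATA match near the start.

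The IL-12 chains were not distinguishable from negative controls in either strain. Of the IL-27 chains, Ebi3 lay well above the control median, while Il27 lay close to the 75th percentile of the controls. Il12a gave 5.62 in CBA/J and 5.60 in C57BL/6, which reached or exceeded 52.9% and 58.0% of the negative controls. Il12b gave 5.86 in CBA/J and 6.05 in C57BL/6, at 59.2% and 68.4% of the controls. Both chains of IL-12 therefore sat near the control median on both arrays and under the level rule. Their differences were 0.02 for Il12a and -0.18 for Il12b, and 97.5% and 74.95% of the negative controls differed by at least as much.

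Il23a, the chain particular to IL-23, gave 4.95 in CBA/J and 5.34 in C57BL/6, at 37.6% and 51.7% of the controls. The CBA/J signal was 0.53 below the control median and the C57BL/6 signal 0.07 above it. The difference as measured was -0.38, but it was 0.15 with each array raised to its control median, so no direction is given for this gene. Neither chain of IL-23 was thus above the negative controls' middle range in resting cells of either strain.

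Ebi3 was the brightest of the IL-12 family against its controls. It gave 8.19 in CBA/J and 8.20 in C57BL/6, at 94.5% and 95.2% of the controls, and the arrays differed by -0.01. Il27 gave 6.53 in CBA/J, still near the control median by the 75th percentile (74.2% of controls), and 6.69 in C57BL/6, just above that percentile (80.8%). Its difference was -0.16, a ratio of 1.11 in favour of C57BL/6, and 78.0% of the negative controls differed by at least as much. Over the 5 genes of the family the median difference was -0.16, with 4 below 0 and 1 above, but Il12a changed sign when the arrays were centred on their medians and Il23a when raised to the control median.

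Il6, which drives acute-phase and Th17 responses, had the largest measured difference toward C57BL/6 among the 10 genes, at a low signal. It gave 5.47 in CBA/J and 6.02 in C57BL/6. The CBA/J signal lay 0.01 below the control median and the C57BL/6 signal 0.75 above it, both within the middle range of the controls. The difference was -0.54, and -0.45 once its trend over signal levels was subtracted; with both signals in the range of the controls no ratio is given. Of all genes, 5.89% differed by as much or more. Of the negative controls 34.3% did, so the difference is not outside the noise of these controls. Il10 was the dimmest against its controls, at 3.76 in CBA/J and 3.61 in C57BL/6, which reached 18.2% and 18.3% of the controls. Both arrays lay below the 25th percentile of the controls, so no ratio is given.

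The TGF-beta genes differed among themselves in where they lay against the negative controls. Tgfb1, the isoform of immune cells, gave 10.87 in CBA/J and 10.75 in C57BL/6, above 99.4% and 99.3% of the negative controls, and the difference was 0.12. It was the gene among the 10 that lay above the 95th percentile of the controls (8.28 for CBA/J and 8.17 for C57BL/6) on both arrays, while Ebi3 passed it in C57BL/6 but not in CBA/J. Tgfb2 gave 5.35 in CBA/J and 5.20 in C57BL/6, both under the control median, so no ratio is given.

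Tgfb3 had the largest difference of the 10 genes. It gave 7.51 in CBA/J and 6.70 in C57BL/6, at 89.7% and 80.8% of the controls, a difference of 0.82 or 1.76-fold higher in CBA/J. Of the genes at the level rule 3.36% differed by as much or more, and of the negative controls 17.2%. Under the alternative scalings the difference stayed between 0.70 and 0.82. Platelets store TGF-beta, and stromal cells make it. Of 5 measured platelet and megakaryocyte markers 4 reached the level rule, with a median difference of 0.22, and the measured markers averaged 8.35 in CBA/J against 8.26 in C57BL/6 (log2). Stromal markers, of which 5 of 7 reached the level rule, had a median difference of 0.27 and means of 6.88 in CBA/J and 6.62 in C57BL/6. The part of either cell type in the TGF-beta signals was not tested, and fewer cells of a type cannot be told apart from less RNA per cell.

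**Figure D2:**
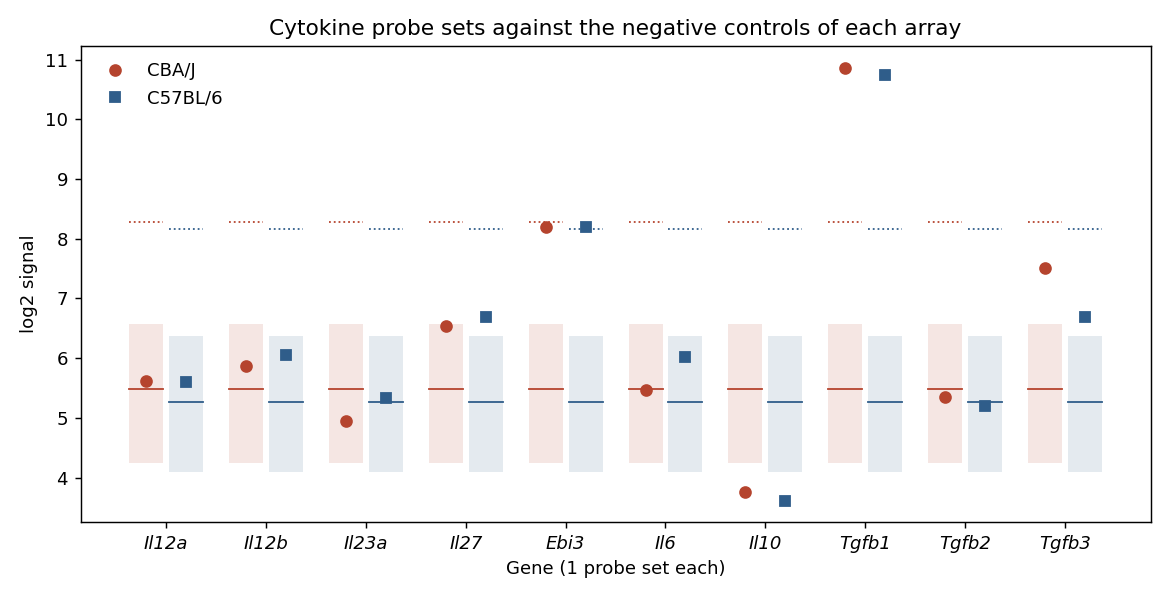
Log2 signal of the 10 cytokine probe sets on the CBA/J array (circles) and the C57BL/6 array (squares). Shaded boxes span the 25th to 75th percentile of that array's negative controls, solid lines their median and dotted lines their 95th percentile. Tgfb1 stands at 10.87 and 10.75, far above the controls, and Il10 below the boxes on both arrays.

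None of the 10 genes was past 2-fold. Of the genes at the level rule, 1.35% were past it with higher signal in CBA/J and 0.795% with higher signal in C57BL/6, and of all genes without that rule 1.23% were past it in either direction. Of the 10, 4 reached the level rule (Il27, Ebi3, Tgfb1 and Tgfb3), beside 11448 of all 21922 genes. At 1.5-fold Tgfb3 passed, against 6.93% of genes at the level rule. Of the 10 measured differences 5 lay above 0 and 5 below, where 48.4% of all genes lay above 0. The median was 0.00 over the 10 genes and 0.06 over the 4 at the level rule, beside 0.08 over all genes at the level rule. For 7 of the 10 the absolute difference was smaller than 0.26, the robust standard deviation of the differences over genes at the level rule. Centring the arrays moved all differences by -0.11, after which Tgfb1 remained at 0.01 and Tgfb3 at 0.70.

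**Figure D3:**
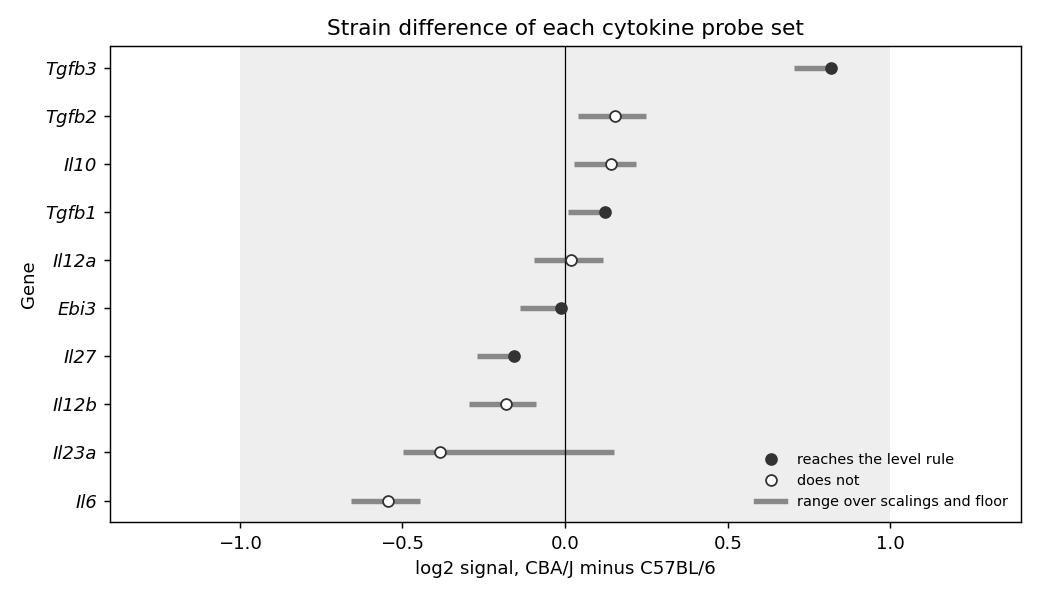
Difference in log2 signal, CBA/J minus C57BL/6, for each of the 10 cytokine genes. Filled circles reach the level rule and open circles do not, grey bars span the value over the alternative scalings and the control floor, and the pale band marks differences under 2-fold. All 10 lie in the band, from -0.54 for Il6 to 0.82 for Tgfb3.

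The receptors for these cytokines were brighter against the controls than most of the cytokines. All 13 were measured and 12 reached the level rule, 9 with a difference above 0 and 3 below, where 61.2% of genes at the level rule lay above 0. Of the 12, 1 was past 2-fold higher in CBA/J and none was past it higher in C57BL/6. The median difference was 0.21, or 0.10 with the arrays centred. All 13 are named here, which goes beyond the naming rule and was decided with their values known. Of the 5 TGF-beta receptor and co-receptor genes, 4 had higher signal in CBA/J under every scaling tried. Tgfbr1, the signalling type I receptor, gave 9.81 in CBA/J and 8.91 in C57BL/6, a difference of 0.90. Tgfbr2, the ligand-binding type II receptor, gave 8.80 in CBA/J and 8.31 in C57BL/6, a difference of 0.50. The alternative type I receptor gene Acvrl1 gave 8.48 in CBA/J and 7.74 in C57BL/6, while the co-receptor gene Tgfbr3 gave 6.87 in CBA/J against 6.57 in C57BL/6. The co-receptor gene Eng (endoglin) gave 7.48 in CBA/J and 7.46 in C57BL/6, a difference whose sign turned under the scaling alternatives. These are differences under 2-fold on 1 array a strain. Each is under 1.27, the 95th percentile of the absolute difference of the negative controls.

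The IL-12 receptor genes Il12rb1 and Il12rb2 lay the other way. Il12rb2, which encodes a signalling chain of the IL-12 receptor, gave 7.81 in CBA/J and 8.49 in C57BL/6, a difference of -0.68. Il12rb1, shared by the receptors of IL-12 and IL-23, gave 6.22 in CBA/J and 6.54 in C57BL/6, a difference of -0.32. Il12rb1 and Il12rb2 had higher signal in C57BL/6 under every scaling tried, but each scaling used the same 2 arrays. The Il12rb1 signal in CBA/J lay in the middle range of the negative controls. Its difference was smaller in size than 0.38, the median absolute difference of the negative controls. Il23r was under the level rule, with 4.68 in CBA/J and 5.75 in C57BL/6, both in the middle range of the negative controls, so no direction or ratio is given for it. Il27ra barely differed, with 6.36 in CBA/J against 6.34 in C57BL/6, and turned sign when the arrays were centred.

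The chains of the IL-10 receptor were split. Il10ra, the ligand-binding chain, gave 9.27 in CBA/J and 8.21 in C57BL/6, a difference of 1.06 that was 0.95 to 0.96 under the 3 scaling alternatives and so under 2-fold there. Il10rb, the chain shared with other cytokine receptors, gave 9.34 in CBA/J and 10.16 in C57BL/6, a difference of -0.82. Of the IL-6 receptor, the binding chain Il6ra gave 9.16 in CBA/J against 8.67 in C57BL/6. The shared signalling chain Il6st (gp130), which also serves IL-27, gave 10.12 in CBA/J and 9.99 in C57BL/6.

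Macrophage, monocyte and neutrophil markers at the level rule mostly had higher signal in CBA/J, as the TGF-beta receptors did, and mast cell and basophil markers mostly did not. Of all genes at the level rule, 61.2% lay above 0. Past 2-fold were 1.35% with higher signal in CBA/J and 0.795% with higher signal in C57BL/6. All 10 macrophage markers reached the level rule, 8 with a difference above 0. They averaged 9.41 in CBA/J against 8.76 in C57BL/6 (log2). Of 7 measured monocyte markers 6 reached the level rule, 5 of them above 0, with means of 8.75 in CBA/J and 7.88 in C57BL/6. The dendritic cell markers leaned the other way, with 9 of the 10 at the level rule below 0 and a median of -0.28. The measured markers averaged 8.55 in CBA/J and 9.02 in C57BL/6, and 3 of them, Ccr7, Cd83 and H2-Ab1, were past 2-fold. Neutrophil markers at the level rule, 4 of 9, were all higher in CBA/J, while Retnlg was under the control median on both arrays. The part of these cell types in the receptor differences was not tested. Eosinophil markers had 4 of 8 at the level rule, 3 of them above 0, and T and NK cell markers 2 of 8, 1 of them above 0. In these counts Ms4a7 (macrophages), Ms4a6c (monocytes), Ly6g (neutrophils), Ear2 (eosinophils) and Cd2 (T cells) reached the rule through the CBA/J array alone. Their direction was thus fixed by the rule, as was that of Prf1 (T and NK cells) through the C57BL/6 array. Of 9 mast cell and basophil markers 4 reached the level rule, 1 above 0 and 3 below, with a median of -0.83. Cpa3 (5.04 in CBA/J and 7.61 in C57BL/6) and Hdc (6.14 in CBA/J and 7.41 in C57BL/6) were past 2-fold, both through the C57BL/6 array, since their CBA/J signals were under the level rule. Another 4 of the 9, among them Fcer1a and Ms4a2, were under the control median on both arrays. B cell markers did not reach the level rule on either array, with Cd79a and Ms4a1 under the control median on both.

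**Figure D4:**
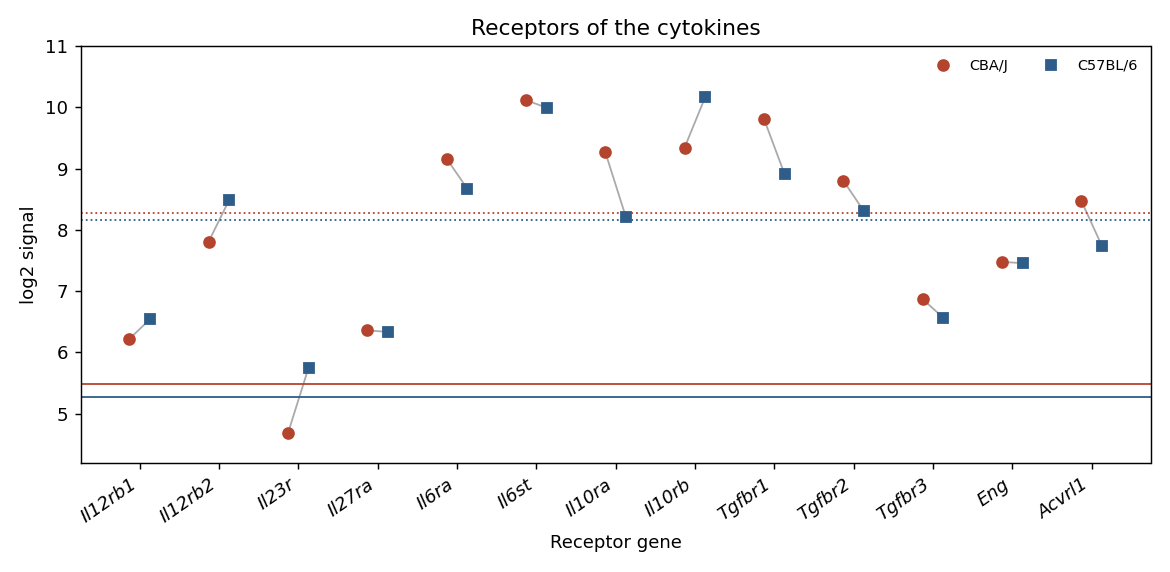
Log2 signal of the 13 receptor genes on the CBA/J array (circles) and the C57BL/6 array (squares), joined per gene. Solid and dotted lines are the median and the 95th percentile of each array's negative controls, red for CBA/J and blue for C57BL/6. Tgfbr1, Tgfbr2, Acvrl1 and Il10ra are higher in CBA/J and Il12rb1, Il12rb2 and Il10rb in C57BL/6, while both Il23r signals lie in the range of the controls.

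Genes that carry the signals of these receptors had differences in both directions. All 12 JAK-STAT genes reached the level rule, with 6 differences above 0 and 6 below, beside 61.2% above 0 over genes at the level rule. The median was -0.02, or -0.13 with the arrays centred. Stat4, the transcription factor through which IL-12 acts, was past 2-fold, at 7.90 in CBA/J and 8.97 in C57BL/6, a difference of -1.06. The kinase genes, named for the highest mean signal over both arrays, split, with Jak2 at 10.61 in CBA/J against 11.07 in C57BL/6 and Jak1 at 10.88 in CBA/J against 10.51 in C57BL/6. Stat4 had its higher signal in C57BL/6, as Il12rb1 and Il12rb2 did, and a link between them was not tested. Of genes at the level rule, 0.795% were past 2-fold in that direction. The Stat4 difference was smaller in size than 1.27, the 95th percentile of the absolute difference of the negative controls.

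Of the 15 genes of TGF-beta signalling and response, 13 reached the level rule. Of these 11 had differences above 0, where 61.2% of genes at the level rule lay above 0, and none was past 2-fold. The median was 0.20, or 0.09 with the arrays centred, beside 0.08 uncentred over all genes at the level rule. Pmepa1, a feedback inhibitor of the pathway, gave 8.29 in CBA/J and 7.81 in C57BL/6. Skil, a repressor of SMAD-driven transcription, gave 9.85 in CBA/J and 9.44 in C57BL/6, and the matrix protein gene Tgfbi gave 10.26 in CBA/J and 10.43 in C57BL/6. The absolute difference of the negative controls had a 95th percentile of 1.27, above each of these.

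Genes for storing and activating latent TGF-beta had differences in both directions. Of 19, 16 reached the level rule, 7 with differences above 0 and 9 below, where 61.2% of genes at the level rule lay above 0. None was past 2-fold, and the median was -0.03, or -0.14 with the arrays centred. Itgb5, the beta chain of the integrin alpha-v beta-5 that can bind latent TGF-beta, gave 9.91 in CBA/J and 9.02 in C57BL/6, a difference of 0.89. Ltbp3, a latent TGF-beta binding protein gene, gave 8.43 in CBA/J and 7.96 in C57BL/6. Thrombospondin 1, Thbs1, which can activate latent TGF-beta, had the list's highest mean signal over both arrays, with 13.12 in CBA/J and 13.35 in C57BL/6. The integrin gene Itgb1 gave 10.63 in CBA/J and 10.62 in C57BL/6.

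All 22 transcription factors and RNA regulators known to act on these cytokine genes reached the level rule, beside 11448 of all 21922 genes. Il12a, Il12b, Il23a, Il6 and Il10 did not reach it. Of the 22, 9 had differences above 0 and 13 below, beside the same 61.2%, none was past 2-fold, and the median was -0.06. The NF-kB subunit gene Rel, needed for Il12b induction, gave 9.94 in CBA/J and 10.43 in C57BL/6, a difference of -0.50. Bhlhe40, a repressor of Il10 in T cells, gave 9.91 in CBA/J and 10.10 in C57BL/6. The largest differences were in Zfp36l1, an mRNA decay factor gene, with 9.18 in CBA/J against 8.52 in C57BL/6, and in Irf1, an interferon regulatory factor gene, with 8.45 in CBA/J against 7.81 in C57BL/6.

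Most other cytokine and mediator genes of dendritic cell activation reached the level rule in these resting cells, while Il12b and Il6 did not. The levels of that rule, 6.16 for CBA/J and 6.21 for C57BL/6, lie within the middle range of the negative controls. Il12b in C57BL/6, at 6.05, lay just under the rule. Of 16, 15 reached the level rule, 4 with differences above 0 and 11 below, beside 61.2% above 0 over genes at that rule. Past 2-fold were 4, all higher in C57BL/6, where 0.795% of genes at the level rule were past it in that direction. The median was -0.17, or -0.29 with the arrays centred. Nos2 reached the level rule through the C57BL/6 array alone, so it could count in that direction only. The 4 were Ccl5 (8.30 in CBA/J and 11.14 in C57BL/6), Ccr7 (9.89 in CBA/J and 11.25 in C57BL/6), Cd83 (7.66 in CBA/J and 8.98 in C57BL/6) and Nos2 (5.92 in CBA/J and 7.14 in C57BL/6). Ccl3, one of the list's highest mean signals over both arrays with Ccr7, lay the other way, with 10.95 in CBA/J and 10.48 in C57BL/6. Ccr7 and Cd83 are also dendritic cell markers of the list above.

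**Figure D5:**
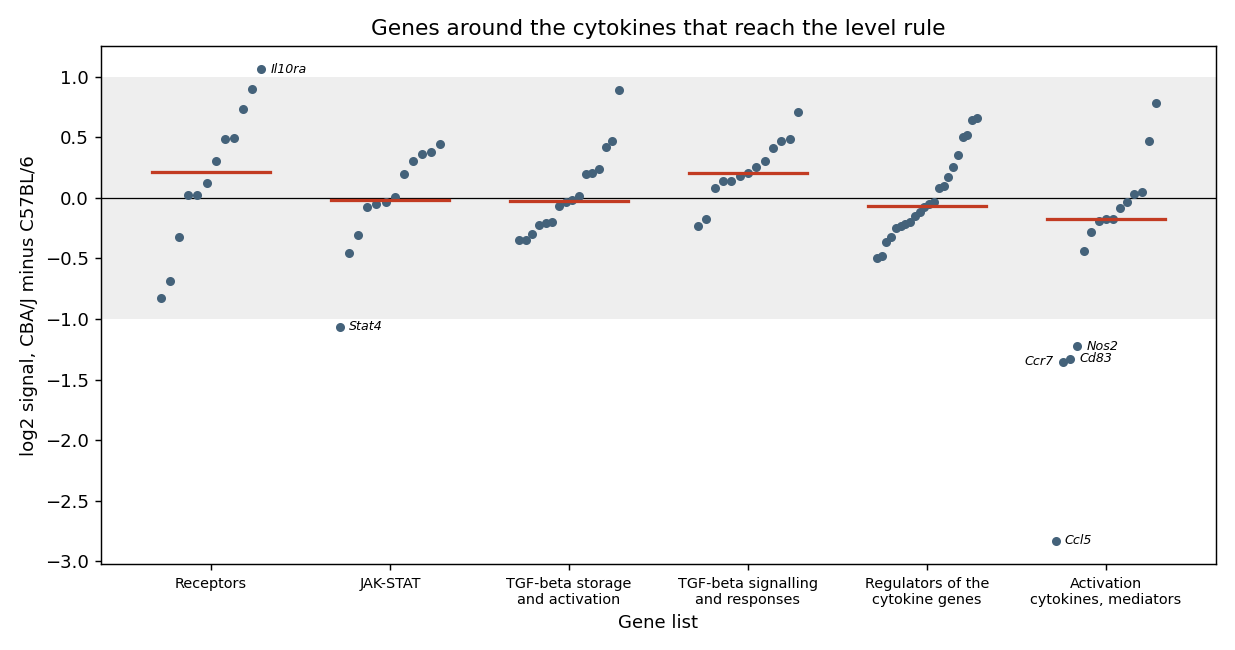
Difference in log2 signal, CBA/J minus C57BL/6, for each gene that reached the level rule in 6 lists around the cytokines, sorted within a list. Red lines are list medians and the pale band marks differences under 2-fold. Named points lie past 2-fold, with Il10ra higher in CBA/J and Stat4, Nos2, Cd83, Ccr7 and Ccl5 higher in C57BL/6.

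Relatives of the cytokines mostly did not reach the level rule either, where 11448 of all 21922 genes did. Of 11 other IL-6 and IL-10 family genes 3 reached the level rule, 2 with differences above 0 and 1 below, with a median of 0.04. Oncostatin M, Osm, gave 7.44 in CBA/J and 8.12 in C57BL/6, a difference of -0.68, and Clcf1 gave 6.90 in CBA/J and 6.79 in C57BL/6. Of 15 other TGF-beta superfamily ligands 3 reached the level rule. They were Inhba, Bmp6 and Bmp1, and Bmp6 did so through the C57BL/6 array alone, so its direction was fixed by the rule. Inhba, which encodes the activin A subunit, gave 8.92 in CBA/J and 9.90 in C57BL/6, a difference of -0.97 that passed 2-fold under the 3 scaling alternatives, at -1.04 to -1.09. Bmp6 gave 6.10 in CBA/J against 6.39 in C57BL/6, and Bmp1 gave 6.59 in CBA/J and 6.65 in C57BL/6. Inhba and Tgfb3, members of one superfamily, thus had their larger signals in different strains.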

How the data were processed

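Each strain's RNA was measured on 1 Affymetrix Mouse Gene 1.0 ST array. The authors deposited log2 signal per probe set. Per the submitters' processing notes, Affymetrix Expression Console 1.1 was used, with no summarization method named there. The log2 difference and linear ratio that the authors deposited are CBA/J over C57BL/6, per the file headers, and the deposited difference matched the array columns. After sorting, both arrays' values agreed to within 0.16, so the arrays had been scaled to a common distribution, and a shift of most genes could not be seen. Probes were designed on the C57BL/6 genome, so a CBA/J sequence variant within a probe can lower its signal; probe sequences were not used.

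Of 35557 probe sets, 24422 carried 1 symbol (25 turned into dates were restored through accessions), 112 carried several and were left out. The brightest probe set represented a gene. Of 198 listed names 196 matched, 3 through an older symbol. Genes and lists were chosen with earlier results of these data known. From each of the 8 lists the text names genes past 2-fold, otherwise the 2 largest differences, and the 2 brightest by mean of both arrays; 1 gene that this takes in is not reported here. No genes were named for a like pattern, since 2 arrays give 1 difference per gene. The number of arrays limits the precision. The calculations were tested on simulated data with known differences. Python 3.11.15, numpy 2.4.6, pandas 2.3.3 and statsmodels 0.14.6 were used. Scaling, floor, probe set choice, level rule and fold threshold were varied.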

Additional observations from a re-analysis of the deposited data

How the results depend on the processing

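Of 50 values of the 10 cytokine differences under 5 alternatives (quantile normalization, centring, removal of the trend with signal level, mean of probe sets, control floor), 49 moved by less than 0.26; Il23a, at 0.15 with the control floor, did not. Signs changed in 2 of the 50, for Il23a there and for Il12a (-0.10) on centring. Il23r, at -1.07 as deposited, moved to -0.26 with the control floor. At 1.5-fold, 1 cytokine (Tgfb3) passed higher in CBA/J, and 17 genes of the 8 lists passed: 5 receptors, 2 regulators and 1 each for TGF-beta storage, TGF-beta signalling, the other IL-6 and IL-10 family genes and the other TGF-beta ligands, with the remainder among JAK-STAT and activation genes. Over all genes, 510 were then higher in CBA/J and 283 in C57BL/6. Of receptors, 0 passed 2-fold after quantile normalization, centring or trend removal, and 2 with no level rule; of the other TGF-beta ligands 1 passed under each of the 3 scalings. With the level rule at the 95th percentile of negative controls, 66 genes were higher in CBA/J and 44 in C57BL/6, the receptor median was 0.49 and that of the other TGF-beta ligands -0.97, resting on Inhba alone. No paired analysis was possible because each strain had 1 array. Signals near the negative controls limit what can be said of Il12a, Il12b, Il23a, Il6, Il10 and Tgfb2.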
